A study of Homo sapiens with 12 samples.

Results

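The nuclear genes for the subunits of the mitochondrial respiratory chain were followed in NCI-H295R cells, a human adrenocortical carcinoma line that makes cortisol. Members were the protein-coding genes whose symbols name a subunit of complex I (NDUFA, NDUFB, NDUFC, NDUFS and NDUFV), complex II (SDH), complex III (UQCR and CYC1), complex IV (COX4 to COX8) or complex V, the ATP synthase (ATP5). This name rule found 84 of the 60662 genes in the expression table, with 37 genes in complex I, 4 in complex II, 9 in complex III, 17 in complex IV and 17 in complex V. NDUFA4 was placed with complex IV, where its protein resides. After 12 h without serum, confluent cells received for 24 h either vehicle (VEH, 0.1% DMSO), 30 μM CJ28, a benzimidazolylurea that lowers cortisol production, or 30 μM metyrapone (MET), an inhibitor of the last enzyme of cortisol synthesis. Each group had 4 samples, named by their numbers 1 to 4, and all came from the same cell line and from ribosome-depleted total RNA.

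The chain sits in the inner mitochondrial membrane. Complexes I and II take electrons from NADH and succinate and pass them to ubiquinone, complex III passes them to cytochrome c, complex IV passes them to oxygen, and complex V uses the resulting proton gradient to make ATP. Most subunits are encoded in the nucleus and a small hydrophobic set in mitochondrial DNA, so that each complex except complex II is built from products of both genomes. In adrenocortical cells the same membrane also holds the side-chain cleavage and hydroxylase enzymes of steroid synthesis, which draw NADPH electrons through adrenodoxin.

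Expression is given as TPM, a length-corrected share of all transcripts in a library scaled to the same total in each, so levels may be compared between genes. The deposited table gives no read counts, and the depth behind each value is therefore not stated here; between 29463 and 31016 genes were above 0 in each library. Of 8 adrenocortical marker genes, 6 had a mean of at least 1 TPM, and their sum was 272 to 283 TPM in VEH, with 109 to 117 TPM in CJ28 and 271 to 285 TPM in MET. Markers of adrenal medulla, fibroblasts, endothelium and leukocytes, each list summed on its own, reached at most 1.17 TPM in any library, with TH and CD3E at 0 in all 12. The part of the lower adrenocortical markers in the subunit results was not tested. In such bulk RNA, fewer cells of a type and less RNA per cell cannot be told apart.

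Of the 84 members, 78 reached 0.5 TPM in at least 4 samples and were tested. Their means in VEH ran from 0.670 to 480 TPM with a median of 68.1 TPM, and 76 were at 10 TPM or above. The highest were ATP5ME of the ATP synthase membrane part at 480 ± 10.8 TPM (SD, n = 4), the catalytic β subunit ATP5F1B at 269 ± 9.07 TPM and the complex III subunit UQCRQ at 257 ± 4.61 TPM. The 6 members under the limit were ATP5MGL and the tissue-restricted complex IV isoforms COX4I2, COX6A2, COX7A1, COX7B2 and COX8C.

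In the CJ28-treated cells, 55 of the 78 subunit transcripts were lower and 9 were higher than in VEH, while 14 did not pass the test. The test was limma's moderated test on log2(TPM + 0.1), fitted over all 16815 genes that passed the same limit, and a gene was called when its Benjamini-Hochberg adjusted p over all of them was under 0.05. The called share was 82.1% of the tested members against 57.0% of all genes. The lower calls made up 70.5% of members against 37.1% of all genes, and the higher calls 11.5% of members against 19.9%. The median log2 difference of the members was -0.33, within a range of -1.03 to 0.67, and the median of all genes was -0.13. The 9 higher transcripts were UQCRC2, ATP5MF-PTCD1, NDUFS7, NDUFS1, SDHB, UQCRC1, NDUFS4, NDUFV1 and CYC1. Of these, ATP5MF-PTCD1 is a readthrough transcript at 1.64 ± 0.126 TPM in VEH (SD, n = 4), counted here through its name and described with complex V below.

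**Figure D1:**
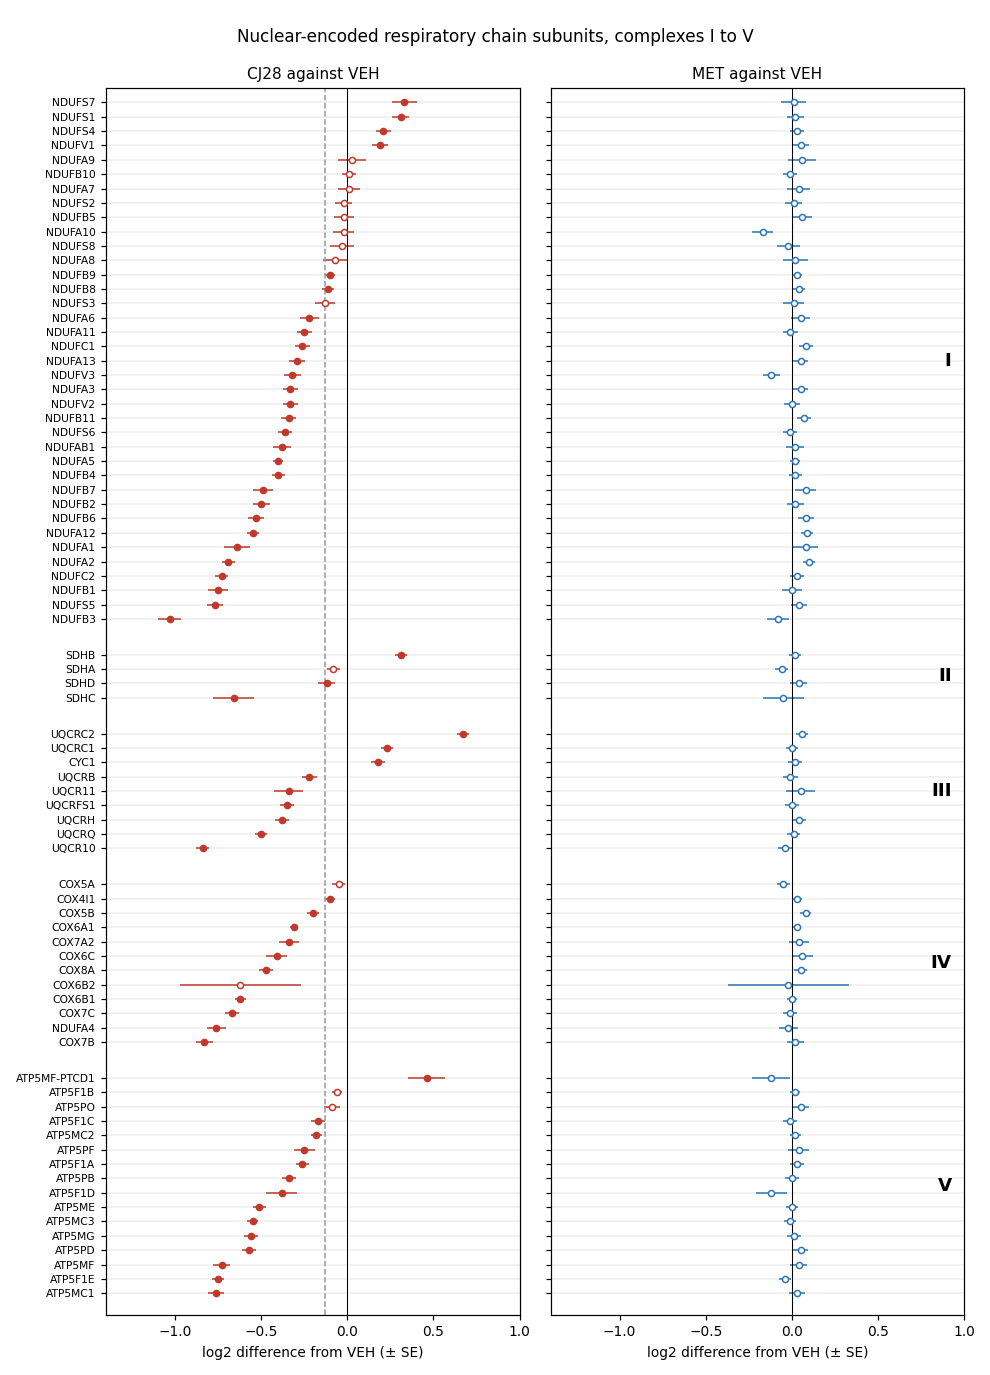
Log2 difference from VEH (x axis, point ± SE of the limma fit, n = 4 per group) of the 78 tested subunits, sorted within complexes I to V, for CJ28 (left) and MET (right). Filled points have an adjusted p under 0.05, and the dashed line marks the median of all genes in CJ28 (-0.13). In CJ28 the points spread from -1.03 to 0.67 and most lie left of the line, whereas in MET all lie between -0.17 and 0.10 and none is filled.

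Because TPM are shares, a shift in a few abundant RNAs moves every other value. Nuclear protein-coding genes held 24.32 to 24.79% of all TPM in VEH, 24.08 to 24.62% in MET and 21.28 to 21.35% in CJ28, and the split between higher and lower calls depended on the scale. After median-of-ratios scaling, which set the median of all genes at 0.01, 13 members were higher and 40 lower (16.7% and 51.3%, against 29.3% and 26.3% of all genes). With TPM recomputed over nuclear protein-coding genes alone, 80 members were tested, of which 23 were higher and 39 lower (28.8% and 48.8%, against 35.3% and 24.7%). With the trends on transcript length and GC content removed, 15 were higher and 40 lower (19.2% and 51.3%, against 28.4% and 28.0%). On all 4 scales the same 9 transcripts were higher and a shared set of 36 was lower, with 16 of these in complex I, 1 in complex II, 4 in complex III, 7 in complex IV and 8 in complex V. Only COX4I1, NDUFB8 and NDUFB9 were called in opposite directions on different scales. The member median stayed below that of all genes on each scale, at -0.17, -0.13 and -0.13 on the other three.

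Promoter sequence was examined because nuclear respiratory chain genes are known targets of the factors NRF1, GABPA and YY1. RefSeq windows (GRCh38.p14, 250 bases before to 50 after the start, 300 bases in all) were matched by symbol for 66 of the 84 members and searched on both strands. The YY1 letters AAGATGGCG were in 4 of 7 matched members higher in CJ28 in 2 of 45 lower ones and in 2 of 11 not called, and overall in 12.1% of members against 1.85% of 27305 promoters. In the 4 higher members the match began 11 to 24 bases after the start, inside the transcript. In these 4, and in 7 of the 8 members with a match, the ATG within the letters is an annotated start codon (GENCODE), so the letters there are also coding sequence. These 4 windows are shown since they cover most of the matched rising genes, with the YY1 letters in capitals.
SDHB, chr1:17054004-17054033, minus strand: cgtcaggagccAAGATGGCGgcggtggtcg
UQCRC1, chr3:48609605-48609634, minus strand: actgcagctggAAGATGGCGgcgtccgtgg
NDUFS4, chr5:53560649-53560678, plus strand: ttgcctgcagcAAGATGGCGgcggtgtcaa
NDUFS7, chr19:1383913-1383942, plus strand: aggccgaggccAAGATGGCGgtgctgtcag

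The GABPA letters CCGGAAG were in 16 of the 45 lower members, in 2 of the 7 higher and in 1 of the 11 not called, and in 28.8% of members against 10.7% of all promoters. The NRF1 letters GCGCATGCG, which overlap their own reverse complement, were in 8 lower members and 1 higher member, and in 15.2% of members against 2.10% of all promoters. At least 1 of the 3 motifs was in 45.5% of members and 13.6% of all promoters. The counts in each call class are a description of few genes and were not tested, and a match is not evidence of binding. Windows of 5 lower members are shown for comparison, with the GABPA letters (on either strand) in capitals in the first 3 and the NRF1 letters in the last 2.
COX6B1, chr19:35648299-35648328, plus strand: cacctctctcagCTTCCGGctggtagtagt
UQCRQ, chr5:132866576-132866605, plus strand: aaatggtatctcCCGGAAGttacctcacga
NDUFA1, chrX:119871773-119871802, plus strand: attccgtcgcttCTTCCGGagccgtacgtg
ATP5ME, chr4:674336-674365, minus strand: cgccgctgacgGCGCATGCGtgcgcccagc
ATP5MC2, chr12:53676106-53676135, minus strand: ggcccgggtcaCGCATGCGCtgagccttcc

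In complex I, which oxidises NADH, 24 of 37 tested subunits were lower in CJ28 and 4 were higher, with a median log2 difference of -0.29. Among all genes, 37.1% were lower and 19.9% higher. The modules of the complex differed in their counts, which were of few genes and were not tested. In the N module, where NADH is oxidised, 3 of 8 were higher and 5 lower (median -0.32). In the Q module, where ubiquinone is reduced, 1 of 8 was higher and 2 were lower, and its median of -0.03 turned to 0.12, 0.18 and 0.09 on the other scales. The membrane arm moves protons, and there 7 of 9 proximal and 10 of 12 distal subunits were lower and none was higher, with medians of -0.29 and -0.39. After median-of-ratios scaling, 4 proximal subunits were lower (median -0.13), and 8 distal subunits were lower and 1 was higher (median -0.23). On that scale 26.3% of all genes were lower and 29.3% higher.

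The complex I transcripts that rose were NDUFS7, NDUFS1, NDUFS4 and NDUFV1. NDUFS1 (chr2:206114817-206159509), the iron-sulfur protein at which electrons enter from the flavin subunit, was at 21.0, 24.0, 21.6 and 20.9 TPM in VEH and at 26.3, 26.7, 28.9 and 27.0 TPM in CJ28 (log2 difference 0.31, SE 0.051, adjusted p = 2.1e-04). NDUFS7 (chr19:1383527-1395589), which carries the iron-sulfur cluster next to the ubiquinone site and whose YY1 match is printed above, was at 30.0, 23.5, 29.3 and 27.4 TPM in VEH and at 34.3, 34.0, 32.1 and 38.1 TPM in CJ28 (0.33, SE 0.072, adjusted p = 0.00160). The groups did not overlap for either gene. NDUFS4, an accessory subunit that holds the N module in place, rose by 0.21 (SE 0.043) and NDUFV1, the flavin subunit, by 0.19 (SE 0.048). Its iron-sulfur partner NDUFV2, by contrast, was among the 36 that were lower on every scale.

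The largest decrease of any member was that of NDUFB3 (ENSG00000119013.9, chr2:201071433-201085750), a small accessory subunit of the distal membrane arm. It was at 35.5, 32.2, 34.6 and 31.4 TPM in VEH, at 15.3, 18.2, 17.2 and 14.9 TPM in CJ28 and at 30.5, 33.4, 32.1 and 30.5 TPM in MET. The CJ28 samples thus lay well below all others, with a log2 difference from VEH of -1.03 (SE 0.066, adjusted p = 4.7e-08) that was -0.87 after median-of-ratios scaling. NDUFS5 (chr1:39026318-39034636), a small accessory subunit of the proximal arm facing the intermembrane space, was at 118, 120, 116 and 107 TPM in VEH and at 71.3, 66.1, 69.1 and 63.2 TPM in CJ28 (-0.77, SE 0.046, adjusted p = 2.3e-08). The 2 groups again did not overlap.

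Complex II, succinate dehydrogenase, has 4 subunits, all nuclear, and they moved apart in CJ28. SDHB (chr1:17018722-17054032), the iron-sulfur subunit, rose from 43.9, 44.3, 45.7 and 43.4 TPM in VEH to 54.8, 54.4, 56.6 and 53.9 TPM in CJ28 (0.31, SE 0.034, adjusted p = 6.2e-06). SDHC (chr1:161314257-161375340), which with SDHD anchors the enzyme in the membrane, fell from 21.2, 26.4, 28.6 and 30.5 TPM to 17.95, 15.9, 14.0 and 19.4 TPM (-0.66, SE 0.12, adjusted p = 3.6e-04). Every CJ28 sample of SDHB was above, and every one of SDHC below, all VEH samples.

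The flavoprotein SDHA (chr5:218241-257082), which oxidises succinate, was at 60.5, 62.0, 61.7 and 64.1 TPM in VEH and 57.9, 59.7, 55.6 and 62.1 TPM in CJ28, overlapping ranges (-0.08, SE 0.040, adjusted p = 0.118). It was called 0.13 higher where TPM were taken over nuclear protein-coding genes, and 0.10 lower when CJ28 sample 4 was left out (adjusted p = 0.0426). Its named pseudogenes held 24.2% of its own level in VEH, and adding them to their parents moved no member's log2 ratio by more than 0.026. SDHD (chr11:112086824-112120016) was at 27.5, 30.1, 29.2 and 26.5 TPM in VEH and 26.5, 25.6, 27.0 and 24.8 TPM in CJ28, also overlapping (-0.12, SE 0.049, adjusted p = 0.0470). This call was lost when any 1 of VEH samples 1, 2 and 3, CJ28 samples 1, 2 and 4 or MET samples 1 and 4 was left out (adjusted p = 0.0504 to 0.134), and its log2 difference was 0.03 after median-of-ratios scaling.

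In complex III all 9 subunits passed the test in CJ28, 3 higher and 6 lower (median -0.34). Among all genes, 19.9% were higher and 37.1% lower. The strongest rise of any member was that of UQCRC2 (ENSG00000140740.11, chr16:21953288-21983660), a large matrix-side subunit related to the mitochondrial processing peptidases. It was at 31.5, 32.7, 31.8 and 31.3 TPM in VEH, at 53.2, 52.1, 50.03 and 48.2 TPM in CJ28 and at 33.8, 32.7, 33.8 and 32.8 TPM in MET. CJ28 samples stood apart from the other groups, with a log2 difference from VEH of 0.67 (SE 0.035, adjusted p = 5.8e-09), a rise of 59.6% in the mean. Its partner UQCRC1 (chr3:48599002-48610976) went from 70.6, 72.0, 74.2 and 70.8 TPM to 79.5, 88.2, 85.1 and 84.2 TPM, without overlap (0.23, SE 0.034, adjusted p = 1.0e-04).

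Of the subunits that carry redox centres in this complex, the cytochrome CYC1 rose by 0.18 (SE 0.041) and the Rieske iron-sulfur protein UQCRFS1 fell by 0.35 (SE 0.041). The small accessory subunits UQCRB, UQCRH, UQCRQ, UQCR10 and UQCR11 were all lower at the deposited scale. UQCR10 (chr22:29767369-29770413) was at 72.0, 68.0, 71.6 and 67.6 TPM in VEH and 40.6, 37.0, 39.0 and 39.3 TPM in CJ28 (-0.84, SE 0.038, adjusted p = 1.9e-09, the smallest among members). UQCRQ (chr5:132866630-132868847) was at 261, 252, 261 and 255 TPM in VEH and at 191, 180, 186 and 171 TPM in CJ28 (-0.50, SE 0.036, adjusted p = 1.6e-07). For both genes the VEH and CJ28 values did not overlap.

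**Figure D2:**
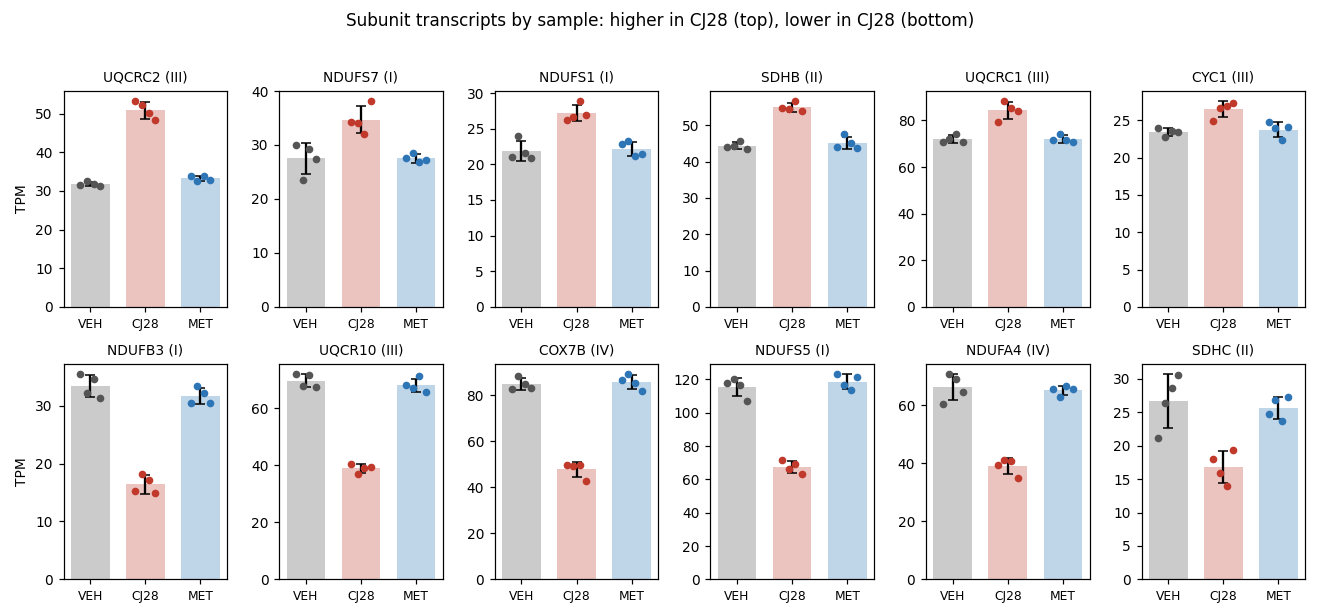
TPM (y axis, starting at 0) of 6 subunits that were higher in CJ28 (top row) and 6 that were lower (bottom row), with the complex in parentheses. Bars are means, error bars SD, and points the 4 samples of each group. In every panel the CJ28 points lie apart from the VEH points, as for UQCRC2 (31.3 to 32.7 against 48.2 to 53.2 TPM) and NDUFB3 (31.4 to 35.5 against 14.9 to 18.2 TPM), and the MET points lie near VEH.

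Complex IV, cytochrome c oxidase, was the complex without a rising subunit at the deposited scale. Of its 12 tested members, 10 were lower (against 37.1% of all genes) and none was higher (against 19.9%), with a median of -0.44. After median-of-ratios scaling COX5A was called higher (0.10, adjusted p = 0.0259), and COX4I1 and COX5B were no longer called. The nuclear subunits of complex IV surround a catalytic core made by mitochondrial genes. COX7B (chrX:77899440-77907376), a small subunit that spans the membrane, was at 82.7, 88.5, 84.9 and 83.3 TPM in VEH and at 49.6, 49.1, 49.9 and 42.8 TPM in CJ28 (-0.83, SE 0.049, adjusted p = 2.4e-08). NDUFA4 (chr7:10931943-10940153), once counted with complex I, was at 60.5, 70.7, 68.8 and 64.5 TPM in VEH and at 39.5, 41.2, 40.7 and 35.0 TPM in CJ28 (-0.76, SE 0.057, adjusted p = 2.2e-07). Neither gene had overlapping groups.

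The broadly expressed isoforms of complex IV changed by unequal amounts. COX6B1, which faces the intermembrane space and whose GABPA match is printed above, went from 191 ± 7.69 to 124 ± 2.07 TPM (SD, n = 4; -0.62), COX8A from 170 ± 8.03 to 123 ± 4.35 TPM (-0.47), COX7A2 from 150 ± 5.82 to 119 ± 9.46 TPM (-0.34) and COX6A1 from 248 ± 3.09 to 200 ± 5.59 TPM (-0.31). COX4I1, a regulatory subunit, changed least among these, from 136 ± 2.19 to 127 ± 4.23 TPM (-0.10, adjusted p = 0.0102), and was 0.10 higher where TPM were taken over nuclear protein-coding genes. The tissue-restricted partners were near the floor in every group. COX4I2 was listed at 0 in all 12 samples, COX6A2, COX7A1, COX7B2 and COX8C reached at most 1.21, 0.220, 0.290 and 0.160 TPM, and COX6B2 was at 0.670 ± 0.325 TPM in VEH and 0.375 ± 0.164 TPM in CJ28 (-0.62, SE 0.35, adjusted p = 0.155). COX6B2 was called lower, by 0.99, when VEH sample 2 was left out, and under no other alternative run.

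NDUFA4L2, the NDUFA4 paralogue that rises in low oxygen and lies outside the name rule, went the other way. It was at 0.870, 1.69, 1.03 and 1.44 TPM in VEH and 2.97, 2.23, 1.81 and 1.83 TPM in CJ28 (0.78, SE 0.22, adjusted p = 0.00878). The ratio of NDUFA4L2 to NDUFA4 was 0.0189 ± 0.00492 in VEH, 0.0565 ± 0.0131 in CJ28 and 0.0125 ± 0.00254 in MET. NDUFA4 thus remained by far the more abundant of the pair in each group, and the ratio itself was not tested.

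In complex V 13 of 16 tested members were lower in CJ28 (against 37.1% of all genes) and 1 was higher (against 19.9%). The median was -0.36. The F1 head, which makes ATP, was uneven. Its catalytic β subunit ATP5F1B (chr12:56638175-56645984) was at 258, 267, 280 and 273 TPM in VEH and at 260, 262, 255 and 255 TPM in CJ28, which overlapped (-0.06, SE 0.029, adjusted p = 0.0927). It was 0.09 and 0.14 higher, and called, on the median-of-ratios and nuclear protein-coding scales, and was called lower, by 0.08, when VEH sample 1 was left out. The ε subunit ATP5F1E (chr20:59025475-59032345), of the central stalk, was at 32.0, 34.7, 33.3 and 33.2 TPM in VEH and at 20.7, 20.1, 19.6 and 18.8 TPM in CJ28 (-0.75, SE 0.037, adjusted p = 4.2e-09). Its groups lay far apart.

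In the membrane part of complex V, ATP5ME (chr4:672436-674330), a small subunit at the dimer interface and the most abundant member, was at 482, 492, 479 and 466 TPM in VEH and at 358, 330, 337 and 322 TPM in CJ28 (-0.51, SE 0.036, adjusted p = 9.9e-08). The only rise in complex V was that of ATP5MF-PTCD1 (chr7:99419749-99466197), a readthrough transcript that shares exons with ATP5MF and PTCD1. It was at 1.50, 1.68, 1.58 and 1.79 TPM in VEH and at 2.26, 2.16, 2.31 and 2.45 TPM in CJ28 (0.46, SE 0.11, adjusted p = 0.00310). ATP5MF itself went from 212 ± 3.14 to 128 ± 9.28 TPM, and PTCD1 from a mean of 1.77 to 2.46 TPM, so reads assigned to the readthrough cannot be separated from those of its parents.

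The c ring, which turns with proton flow, is made of 1 mature protein encoded by ATP5MC1, ATP5MC2 and ATP5MC3. ATP5MC1 (chr17:48892765-48895871) fell from 49.7, 46.5, 47.7 and 45.6 TPM to 28.3, 27.9, 27.4 and 28.5 TPM (-0.76, SE 0.047, adjusted p = 3.5e-08). ATP5MC3 (chr2:175176258-175184607) fell from 80.1, 82.1, 85.2 and 81.0 TPM to 56.7, 58.0, 54.2 and 54.9 TPM (-0.55, SE 0.034, adjusted p = 2.9e-08). ATP5MC2 (chr12:53632726-53677408), whose NRF1 match is printed above, fell least, from 91.4, 91.0, 89.5 and 95.6 TPM to 78.5, 80.3, 83.6 and 82.3 TPM (-0.18, SE 0.031, adjusted p = 3.6e-04), and by 0.03 with an adjusted p of 0.572 after median-of-ratios scaling. The makeup of the c ring mRNA differed between groups, as the ratio of ATP5MC2 to ATP5MC3 was 1.05 to 1.18 in VEH, 1.39 to 1.54 in CJ28 and 1.09 to 1.22 in MET. The ratio of ATP5MC1 to ATP5MC3 was 0.560 to 0.621, 0.481 to 0.518 and 0.530 to 0.655. Both ratios are free of library scaling and separated CJ28 from VEH without overlap, but were not tested.

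Summed over its genes, each complex took the following share of nuclear protein-coding TPM. Complex I held 0.936% ± 0.0228 in VEH and 0.873% ± 0.0155 in CJ28, complex III 0.305% and 0.290%, complex IV 0.651% and 0.564%, and complex V 0.791% and 0.699%. Complex II alone had a larger share in CJ28, 0.0734% ± 0.00135 against 0.0657% ± 0.00197, but as a share of all TPM its log2 ratio was -0.04. Its samples held 0.0720 to 0.0752% in CJ28 and 0.0629 to 0.0676% in VEH, without overlap. All 84 genes together made up 2.50% of it in CJ28, against 2.75% in VEH and 2.82% in MET.

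**Figure D3:**
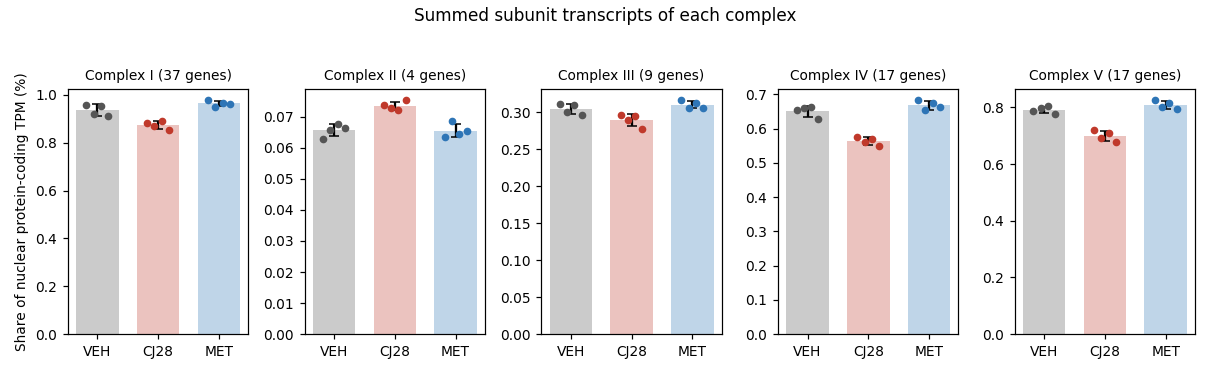
Share of nuclear protein-coding TPM (y axis, %) taken by the summed subunits of each complex. Bars are means, error bars SD, and points the 4 samples of each group. CJ28 is below VEH for complexes IV (0.564 against 0.651%) and V (0.699 against 0.791%) and above it for complex II (0.0734 against 0.0657%), although as a share of all TPM complex II had a log2 ratio of -0.04.

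Members were also split by role, into core subunits (those that carry the redox centres, the 4 of complex II and the conserved ATP synthase subunits) and accessory ones. Of 25 core subunits, 5 were higher and 14 lower in CJ28 (median -0.17), and of 53 accessory subunits 4 were higher and 41 lower (-0.36). Among all genes 19.9% were higher and 37.1% lower, so the share of core subunits called higher was near that of all genes. On the other scales the core median was -0.02, 0.04 and -0.00, and the accessory median -0.21, -0.17 and -0.17. In complex I alone, 3 of 7 core subunits were higher and 1 was lower, against 1 and 23 of 30 accessory subunits.

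Transcript length moved with both role and change. The canonical transcripts of core subunits had a median length of 1191 nt and those of accessory subunits 690 nt. Of 20 members under 600 nt, 19 were lower and none was higher (median -0.48), and all 236 tested protein-coding genes of that length had a median of -0.45, with 61.4% lower. Members of 600 to 1000 nt had a median of -0.23 (565 genes, -0.17) and longer ones -0.22 (11689 genes, -0.11). After the length and GC trends were removed, the member medians in these bands were -0.25, -0.02 and -0.07. Within transcripts of 1000 nt or more, 15 core subunits had a median of -0.12 and 19 accessory subunits one of -0.32, and among shorter ones 10 core subunits had -0.22 and 34 accessory subunits -0.38. The part of length in the difference between roles was not tested.

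**Figure D4:**
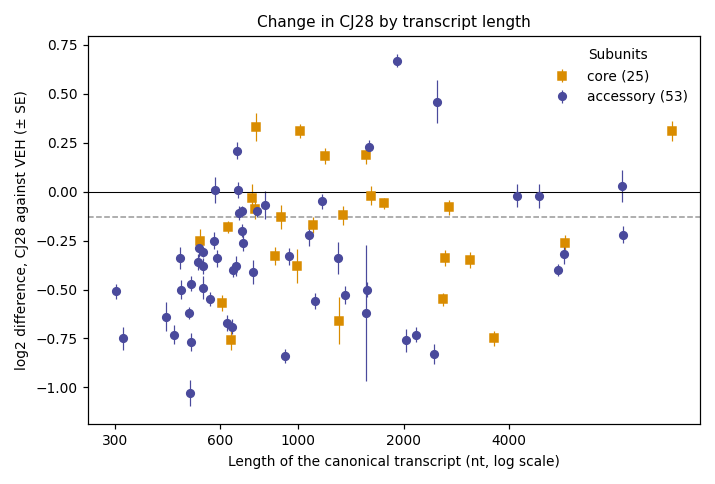
Log2 difference between CJ28 and VEH (y axis, ± SE, n = 4 per group) against the length of the canonical transcript (x axis, log scale) for 25 core (squares) and 53 accessory (circles) subunits. The dashed line marks the median of all genes (-0.13). The 20 members shorter than 600 nt have a median of -0.48, with 19 of them called lower, and 7 of the 9 called higher are 1000 nt or longer.

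The regulators of these genes did not move together. PPARGC1A, the coactivator that drives mitochondrial biogenesis, was between 1.23 and 1.51 TPM in VEH and at 3.47, 4.15, 3.15 and 3.78 TPM in CJ28 (1.36, SE 0.14, adjusted p = 3.8e-06). GABPA, the DNA-binding subunit of the factor whose letters are shown in 3 of the windows above, was at 6.52, 7.09, 7.10 and 7.19 TPM in VEH and at 3.47, 3.35, 3.60 and 3.67 TPM in CJ28 (-0.97, SE 0.052, adjusted p = 9.5e-09). These were the largest rise and fall in a list of 14 tested regulators, of which 5 were higher and 7 lower (median -0.23). As shares these were 35.7% and 50%, against 19.9% and 37.1% of all genes. After median-of-ratios scaling 5 were higher and 5 lower (35.7% each, against 29.3% and 26.3% of all genes). The next values were chosen after they were seen. ESRRA and ESRRG, nuclear receptors that work with PPARGC1A, rose by 0.75 (SE 0.056) and 0.64 (SE 0.068). TFAM, which packages mitochondrial DNA, fell by 0.50 (SE 0.056). NRF1 fell by 0.39 (SE 0.081, adjusted p = 0.00134), and YY1 had a difference of -0.02 (SE 0.059, adjusted p = 0.767). Each call named here kept its direction after median-of-ratios scaling.

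**Figure D5:**
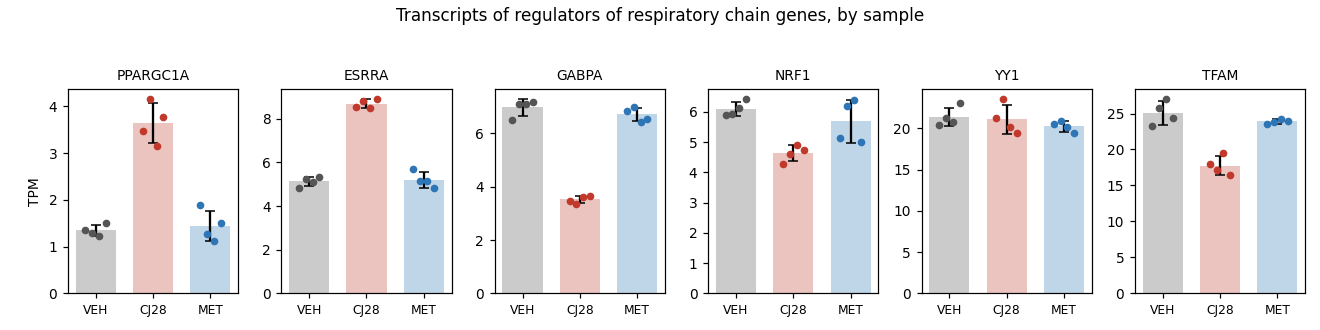
TPM (y axis, starting at 0) of 6 regulators of respiratory chain genes. Bars are means, error bars SD, and points the 4 samples of each group. In CJ28, PPARGC1A (3.15 to 4.15 against 1.23 to 1.51 TPM) and ESRRA are above VEH, GABPA (3.35 to 3.67 against 6.52 to 7.19 TPM), NRF1 and TFAM are below it, and YY1 overlaps it.

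Genes that serve the chain without being its subunits were mixed. Of 54 tested assembly factors, 15 were higher (27.8%, against 19.9% of all genes) and 22 lower (40.7%, against 37.1%) in CJ28. The balance turned after median-of-ratios scaling, with 19 higher and 9 lower (35.2% and 16.7%). That of all genes turned too, to 29.3% higher and 26.3% lower. The median of the assembly factors, -0.09, turned to 0.06, 0.11 and 0.06 on the other scales. Assembly factors of complex I had 7 higher (41.2%) and 6 lower (35.3%) of 17, and 7 and 0 after median-of-ratios scaling. Those of complex II had 3 higher (75%) and 1 lower (25%) of 4, and 3 and 0 after that scaling. The other complexes went the other way at the deposited scale. Complex III (6 factors) had 16.7% higher and 50% lower, complex IV (23) 17.4% and 43.5%, and complex V (4) 0% and 50%. After median-of-ratios scaling these shares were 33.3% and 16.7%, 30.4% and 30.4%, and 0% and 25%. SDHAF4, which helps to mature SDHA, was at 4.42, 5.29, 4.22 and 3.87 TPM in VEH and at 7.48, 7.73, 8.64 and 6.86 TPM in CJ28 (0.78, SE 0.14, adjusted p = 3.6e-04). COX16, needed to build complex IV, was at 9.35, 11.7, 10.3 and 9.86 TPM in VEH and at 3.85, 3.29, 5.84 and 3.73 TPM in CJ28 (-1.31, SE 0.16, adjusted p = 1.7e-05). In neither case did the groups overlap.

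Of the 13 subunits encoded in mitochondrial DNA, 11 were lower in CJ28 (84.6%, against 37.1% of all genes) and none was higher (median -0.47). After median-of-ratios scaling 76.9% were lower, against 26.3% of all genes. MT-ATP8 had the largest decrease, from 2095 ± 325 to 1316 ± 228 TPM (-0.68, SE 0.12). Of 9 subunits and partners that the name rule leaves out, 7 were lower (77.8%) and 2 higher (22.2%, against 19.9% of all genes), with a median of -0.39. After median-of-ratios scaling these shares were 66.7% and 22.2%, against 26.3% and 29.3% of all genes. ATP5MPL, a small ATP synthase subunit, fell from 88.8 ± 1.42 to 57.3 ± 3.22 TPM (-0.63, SE 0.047). Among 19 genes for ubiquinone synthesis and for other enzymes that feed it electrons, 4 were higher (21.1%, against 19.9% of all genes) and 9 lower (47.4%, against 37.1%). After median-of-ratios scaling 7 were higher and 6 lower (36.8% and 31.6%, against 29.3% and 26.3% of all genes). The methyltransferase COQ5 rose by 0.70 (SE 0.069), and PDSS1, a subunit of the enzyme that makes the isoprenoid tail of ubiquinone, fell by 0.83 (SE 0.10). Of the electron carriers of steroid synthesis, adrenodoxin FDX1 fell by 0.56 (SE 0.047) and its reductase FDXR by 0.40 (SE 0.047), while FDX2, which serves iron-sulfur cluster assembly, rose by 0.45 (SE 0.078).

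In the MET-treated cells no subunit transcript was called against VEH. By limma, 0 of the 78 members passed the adjusted threshold, against 0.00595% of all genes, which is 1 gene, and 5 members had an unadjusted p under 0.05 (6.41%, against 5.2% of all genes). The log2 differences ran from -0.17 to 0.10 with a median of 0.02, and the median SE was 0.043. Each alternative scale and setting also gave 0 calls. The members with the smallest unadjusted p were complex I subunits. NDUFA10 (chr2:239892450-240025345), of the proximal membrane arm, was at 18.01, 19.2, 20.6 and 17.96 TPM in VEH and at 16.9, 17.6, 16.0 and 16.6 TPM in MET (-0.17, SE 0.061, adjusted p = 0.933). NDUFA2 (chr5:140638740-140647785), of the N module, was at 21.0, 22.1, 22.6 and 21.8 TPM in VEH and at 24.3, 23.3, 23.1 and 23.2 TPM in MET (0.10, SE 0.037, adjusted p = 0.933). NDUFA2 lies across from the more abundant gene IK on the other strand, and the strand setting of the counting is not given in the sources used here. NDUFA12, of the N module, was at 77.8 ± 2.50 TPM in VEH and 83.0 ± 2.92 TPM in MET (0.09, SE 0.035, adjusted p = 0.933). These misses do not show that MET leaves the transcripts as they were. The other lists had no call in MET either: at an unadjusted p under 0.05 there were 2 assembly factors, 1 regulator, 1 gene among the partners left out by name and 3 mitochondrially encoded subunits, with 0 ubiquinone genes and 0 steroid electron carriers, and all 13 mitochondrially encoded subunits had a negative difference (median -0.15). As shares of their lists these were 3.7%, 7.14%, 11.1% and 23.1%, beside the 5.2% of all genes.

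The 2 inhibitors were given at the same dose and time, so they could be compared directly, in 1 comparison per gene. CJ28 differed from MET in 67 of the 78 members, or 85.9% against 55.5% of all genes, with 10 higher (12.8%, against 20.9%) and 57 lower (73.1%, against 34.6%), and a median of -0.34. Values for CJ28 are the same samples as above. UQCRC2 was higher by 0.61 (adjusted p = 1.5e-08) and SDHB by 0.29 (adjusted p = 1.3e-05) in CJ28 than in MET. NDUFB3 was lower by a log2 difference of -0.95 (adjusted p = 1.0e-07), COX7B by -0.84 (adjusted p = 2.0e-08) and UQCR10 by -0.80 (adjusted p = 2.9e-09). SDHA did not pass the test between the compounds (-0.02, adjusted p = 0.692) but was higher in CJ28 by 0.10 after median-of-ratios scaling and by 0.17 over nuclear protein-coding genes. NDUFA10 was higher in CJ28 than in MET (0.15, adjusted p = 0.0473), with overlapping samples of 16.8 to 20.1 and 16.0 to 17.6 TPM, while its difference between CJ28 and VEH was -0.02 (adjusted p = 0.823). This call between the compounds was lost without any 1 of VEH samples 1 and 2, CJ28 samples 2, 3 and 4 or MET samples 1, 3 and 4 (adjusted p = 0.0504 to 0.139), and the difference was 0.27 after median-of-ratios scaling.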

How the data were processed

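RNA-seq libraries of 12 samples (3 groups of 4, numbered 1 to 4 in their titles) were made by the authors from ribosome-depleted total RNA with a stranded kit. The titles do not say whether samples of a group were separate cultures. The authors trimmed the reads with Cutadapt 2.8, aligned them to GRCh38 with STAR 2.7.10b and deposited TPM values per gene from RSEM 1.3.3. TPM are relative and carry no counts, so no count model was used. The CJ28, MET and VEH columns were fitted together with limma 3.58.1 (R 4.3.3, trended variance) on log2(TPM + 0.1) for genes of at least 0.5 TPM in at least 4 samples, with Benjamini-Hochberg adjustment. A log2 difference on this scale understates the change of low genes. The script was tested on simulated data. Named members were, per complex, the 2 largest called changes in each direction in CJ28 (mean of at least 1 TPM), complex II, the 3 smallest p in MET, the 3 highest in VEH and the isoform pairs, and from other lists the largest called change in each direction. Members and lists were chosen with earlier results of these data known. Lengths are of GENCODE canonical transcripts. Alternatives were other pseudocounts, filters and scalings, a replicate block, fits of 2 groups and the omission of each sample.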

Additional observations from a re-analysis of the deposited data

Results flagged for a closer look

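Within groups of 4 samples, 3 of 105 groups of named genes held a sample whose gap to its nearest neighbour took up more of the group's range than Dixon's 95% critical value allows, and chance alone flags about 5% of groups. CJ28 sample 4 was the high value for COX6B2, at 0.620 TPM where the next highest and the lowest were close together (lowest 0.280 TPM), and the low value for COX7B, at 42.8 TPM against 49.1 to 49.9 TPM. CJ28 sample 1 was the low value for NDUFA2, at 12.8 TPM against 13.7 to 13.8 TPM. COX7B and NDUFA2 stayed called lower than VEH with these samples left out, and COX6B2 was not called with or without CJ28 sample 4.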

How the results depend on the processing

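At pseudocounts of 1 and 0.01, with no filter, with a mean of at least 1 TPM and with only the groups compared, 63 to 64 members were called in CJ28 against VEH, 63 to 67 in CJ28 against MET and 0 in MET against VEH. Leaving out single samples gave 62 to 64 calls for CJ28 against VEH (9 higher, 53 to 55 lower), 63 to 68 for CJ28 against MET (8 to 10 higher, 55 to 58 lower) and 0 for MET against VEH.

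Scaling changed more. Members called higher numbered 23 over nuclear protein-coding genes and 15 with length and GC trends removed for CJ28 against VEH, and 16 over nuclear protein-coding genes for CJ28 against MET. As shares of all TPM, the log2 ratios of CJ28 to VEH were -0.31, -0.04, -0.28, -0.41 and -0.38 for complexes I to V, against -0.10, 0.16, -0.07, -0.21 and -0.18 as shares of nuclear protein-coding TPM. Against VEH, 14 of 78 members turned from a negative to a positive difference under median-of-ratios scaling, 17 over nuclear protein-coding genes and 15 with the trends removed. Those given next are named members called on the deposited scale or on the scale given. SDHA (0.07) and NDUFA10 (0.13) also turned against VEH under median-of-ratios scaling, but were called neither there nor on the deposited scale. Against VEH, median-of-ratios scaling gave ATP5F1B 0.09, COX4I1 0.05 and SDHD 0.03, nuclear protein-coding TPM gave ATP5F1B 0.14, ATP5MC2 0.03, COX4I1 0.10, NDUFA10 0.19, SDHA 0.13 and SDHD 0.08, and removal of the trends gave ATP5MC2 0.04 and COX4I1 0.09. Against MET, median-of-ratios scaling gave ATP5F1B 0.04 and SDHA 0.10, nuclear protein-coding TPM gave ATP5F1B 0.11, COX4I1 0.06, SDHA 0.17 and SDHD 0.03, and removal of the trends gave ATP5F1B 0.01 and COX4I1 0.03. The cause was not tested.

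Samples with the same number did not vary together (correlations of their deviations from -0.124 to 0.0394), so the numbers were not taken as pairs. With a replicate block, 64 members were called in CJ28 against VEH (9 higher, 55 lower), 66 in CJ28 against MET and 0 in MET against VEH.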
